A study of Arabidopsis thaliana with 2 samples.

Results

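The genes described here encode histone H3 in Arabidopsis thaliana. They were 9 of the 27444 protein-coding genes on the 5 nuclear chromosomes. They were chosen by locus code from the family, with earlier results of these data known. They comprised 5 genes for histone H3.1 (HTR1, HTR2, HTR3, HTR9 and HTR13), 3 genes for histone H3.3 (HTR4, HTR5 and HTR8) and 1 gene for the centromeric histone CENH3 (HTR12). A gene was counted as having a peak when a peak of the deposited list overlapped the gene or the 1000 bp to either side of it by at least 1 bp.

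The list came from 1 chromatin immunoprecipitation (ChIP) library. Whole Col-0 seedlings that expressed MYB3R3 fused to green fluorescent protein (MYB3R3-GFP) were taken 9 days after germination, with no treatment, and anti-GFP antibody was used for the precipitation. A library of input DNA from seedlings of the same line and age was not analysed here, nor was any library from plants without the fusion. The sources used here name neither the promoter that drives the fusion nor whether the line lacks its own MYB3R3, and whole seedlings mix dividing cells with many that no longer divide. The series asks which genes MYB3R3 binds.

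MYB3R3 belongs to the plant MYB proteins with 3 MYB repeats, which act on genes of the cell cycle, and in Arabidopsis it is known as a repressor of mitotic genes. The H3 variants differ in when they enter chromatin. H3.1 is made in S phase and is placed behind the replication fork by the chaperone complex CAF-1. H3.3 is made throughout the cell cycle and replaces other histones outside replication, mainly at transcribed genes, with the help of the HIRA complex. CENH3 takes the place of H3 at centromeres, where the kinetochore forms.

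Peaks were found at 4 of the 5 H3.1 genes, at 1 of the 3 H3.3 genes and at HTR12, against 13.9% of all protein-coding genes under the same rule. HTR3 was the H3.1 gene without a peak, and HTR4 and HTR8 were the H3.3 genes without one. The members with a peak were served by 6 distinct peaks of the 2931 in the list, since HTR13 and HTR9 shared a peak and HTR12 had a pair. The H3.1 share exceeded the H3.3 share by 46.7 percentage points. Each of these genes is a single count and there was no replicate library, so no test of this difference was made and no spread between plants can be given.

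Each peak carries a score set by the authors. The sources used here give no formula for it, so scores served only to rank peaks within the list. Over all 2931 peaks the score ran from 4.13 to 749.6, with a median of 17.4 and quartiles of 11.98 and 28.5. The 3 peaks at H3.1 genes scored 89.8, 52.5 and 15.1, against 7.5 for the peak at the H3.3 gene HTR5. Both peaks with the higher H3.1 scores lay above the upper quartile, while the third lay below the median. The HTR5 peak was low in the list, with only 4.47% of peaks scoring less. With the 733 highest-scoring peaks alone, 3 of 5 H3.1 genes (HTR2, HTR9 and HTR13), 0 of 3 H3.3 genes and HTR12 had a peak, against 4.14% of all protein-coding genes. The 1467 higher-scoring peaks gave the same members, against 7.59% of all genes.

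**Figure D1:**
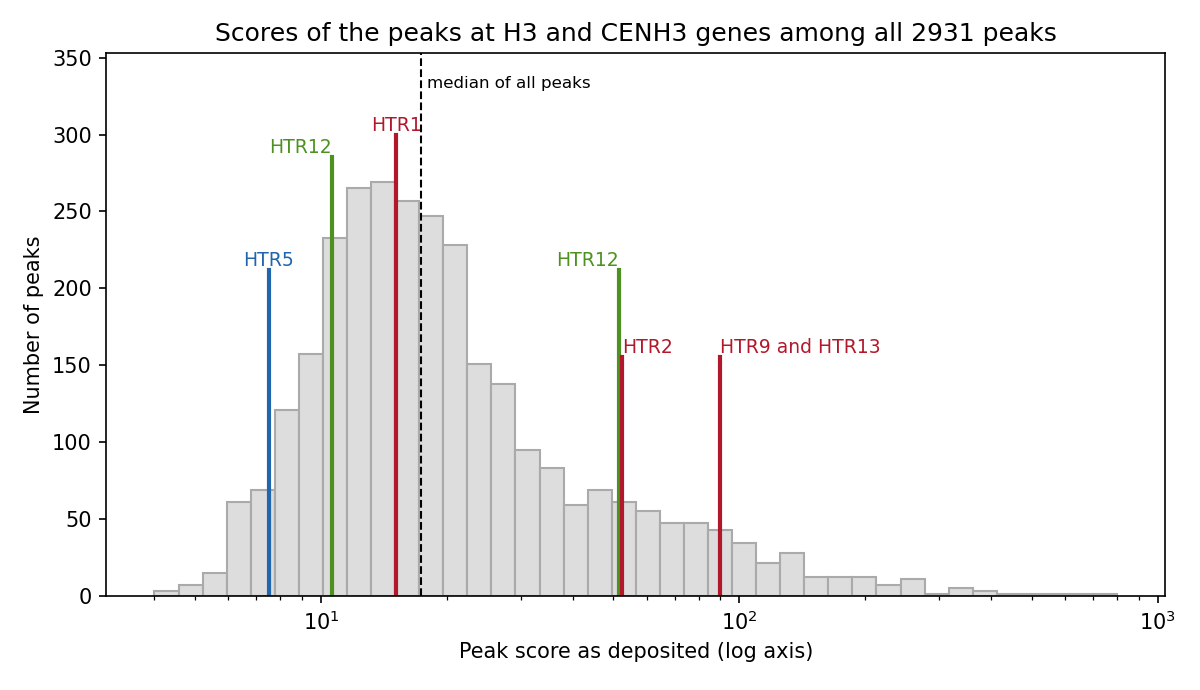
Histogram of the deposited score of all 2931 peaks (log axis), with the number of peaks on the vertical axis. Coloured lines mark the 6 peaks at H3.1 (red), H3.3 (blue) and CENH3 (green) genes, and the dashed line marks the median of 17.4; the peak shared by HTR9 and HTR13, the HTR2 peak and the stronger HTR12 peak lie above it.

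Among the H3.1 genes, the neighbours HTR13 (AT5G10390) and HTR9 (AT5G10400) had the highest score. Their genes lie next to each other with 577 bp between them and no other gene in that space. The shared peak covered 489 bp on chromosome 5, from 3269434 to 3269922 (TAIR10), and scored 89.8, which was rank 176 of 2931. It overlapped the end of HTR13 by 161 bp (32.9% of the peak), and its midpoint lay 84 bp outside that gene, in the space between the genes. Its edge was 249 bp from HTR9, which made HTR9 the member whose peak was farthest from the gene while still counted. The same peak also came within 1000 bp of RING1, a gene for a RING-finger ubiquitin ligase, at a distance of 620 bp.

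HTR2 (AT1G09200) came next among the H3.1 genes. Its peak covered 430 bp on chromosome 1, from 2972032 to 2972461 (TAIR10), and scored 52.5 (rank 370). Of this peak, 303 bp (70.5%) lay inside HTR2, and the midpoint was 87.5 bp inside the nearer end of the gene. CRT1b, a gene for the endoplasmic reticulum chaperone calreticulin, lay 176 bp from the peak, and AT1G09195 lay 463 bp from it. Neither of these overlapped the peak.

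HTR1 (AT5G65360) had the weakest H3.1 peak, with a score of 15.1 (rank 1729), which was higher than the scores of 40.9% of all peaks. The peak covered 378 bp on chromosome 5, from 26120583 to 26120960 (TAIR10). It lay wholly outside the gene, with 1 bp between the gene's end and the peak. On the other side of HTR1, after a space of 33 bp, lies HTR11, a further H3 gene. HTR11 was 757 bp from this peak, and AT5G65370 was 747 bp from it on the far side. HTR1 was thus the nearest gene by a wide margin.

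HTR3 (AT3G27360) differed from the other 4 H3.1 genes in having no peak in reach. The nearest peak was 10492 bp away and scored 35.5. That distance is ordinary for a gene in this list, since 54.0% of all protein-coding genes were farther from their nearest peak and the median distance was 12195 bp.

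The H3.3 genes gave another picture. HTR4 (AT4G40030) and HTR5 (AT4G40040) are neighbours with 42 bp between them, as HTR13 and HTR9 are neighbours among the H3.1 genes, but the peak here lay at the outer end of the pair. It covered 207 bp on chromosome 4, from 18558836 to 18559042 (TAIR10), and scored 7.5 (rank 2797). Its midpoint was 6 bp inside the end of HTR5 that faces away from HTR4, and 110 bp of the peak (53.1%) lay in HTR5. AT4G40042 began 54 bp from the other edge of the peak and AT4G40045 was 741 bp away. The peak was 1729 bp from HTR4, which put HTR4 outside the 1000 bp limit. HTR8 (AT5G10980) was far from any peak, at 35999 bp from the nearest, and only 19.2% of all protein-coding genes were as far or farther.

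The H3.3 genes were not searched over less sequence than the H3.1 genes. The H3.1 genes were 723 to 833 bp long, against 1166 to 1797 bp for the H3.3 genes, so each H3.1 search covered 2723 to 2833 bp and each H3.3 search 3166 to 3797 bp. HTR12, at 2991 bp, was the longest member.

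HTR12 (AT1G01370), the gene for CENH3, had a peak near each of its ends. The stronger peak covered 487 bp on chromosome 1, from 143383 to 143869 (TAIR10), and scored 51.6 (rank 378), close to the HTR2 peak in the order of the list. Of it, 78.2% lay inside HTR12, with the midpoint 137 bp inside the gene's end. RCAR1, a gene for an abscisic acid receptor, lay 121 bp from this peak. The weaker peak covered 244 bp, from 146206 to 146449, and scored 10.6 (rank 2421). It lay entirely inside HTR12, with its midpoint 151.5 bp from the gene's other end and 593 bp of separation from ETC1, a gene for a small MYB protein of hair cell patterning. In all, 432 genes had 2 or more peaks, which was 1.57% of the 27444 protein-coding genes and 11.3% of the genes with a peak.

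**Figure D2:**
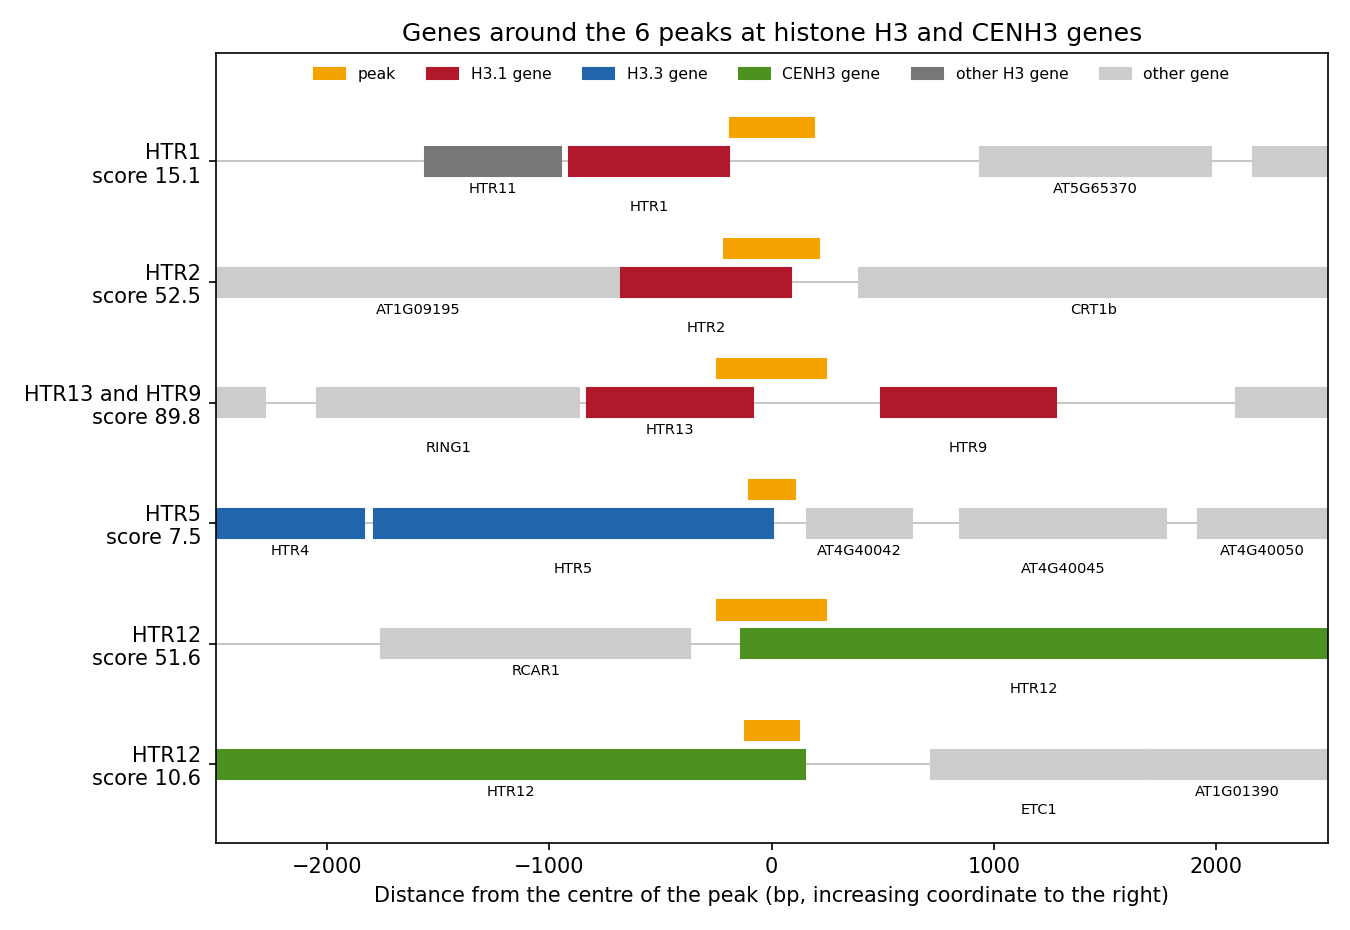
Genes within 2500 bp of the centre of each of the 6 peaks at H3.1 (red), H3.3 (blue) and CENH3 (green) genes, drawn to scale in bp from the peak centre; orange bars are the peaks, dark grey is the H3 gene HTR11 and light grey are other genes. The shared peak of HTR13 and HTR9 runs from the end of HTR13 into the space between them and stops 249 bp short of HTR9, while the peaks at HTR1 and HTR5 lie at the end away from the neighbouring H3 gene.

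Placed against all genes that had a peak, the members spread over the whole range. The median highest score of these 3828 genes was 18.5. HTR9 and HTR13, both through their 1 shared peak, exceeded 92.5% of them, HTR2 exceeded 84.2% and HTR12 exceeded 83.9%. HTR1 exceeded 36.7% and HTR5 exceeded 4.08%. Of the 4 H3.1 genes with a peak, 3 were therefore above the median for genes with a peak, and HTR5, the H3.3 gene with a peak, was far below it.

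The peaks were close to gene ends, a feature the rule did not use beyond its limit of 1000 bp. In 6 of the 7 pairs of a member and its peak, the midpoint lay within 200 bp of the nearer end of the gene, inside or outside it, against 46.4% of the 4327 such pairs over all protein-coding genes. The exception was HTR9, at 494 bp. The feature was not particular to the members, since 8 of 9 pairs in the list of genes that place, mark or read H3, described below, also lay within 200 bp. The H3.1 genes, at 723 to 833 bp, were short against a median gene of 2078 bp. A midpoint inside such a gene has little room to be far from an end. Among the H3.1 genes this applies to HTR2 alone, since the midpoints at HTR1, HTR9 and HTR13 lay outside the gene. Whether gene length bears on the closeness to gene ends was not tested. The midpoint was inside the gene in 4 of the 7 pairs (HTR2, HTR5 and both peaks of HTR12), against 38.2% of all pairs. The median peak width was 404 bp over the 6 member peaks and 275 bp over the whole list. Strand was left out, so these ends are not assigned to the start or the stop of the genes.

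All 6 peaks touched the windows of more than 1 protein-coding gene, 4 of them those of 3 genes and 2 of them those of 2 genes. In the whole list 49.9% of peaks touched 2 or more genes and 4.44% touched 3 or more. The whole list includes 202 peaks that touched no gene, whereas a peak at a member touches at least 1 gene by the rule. In each of the 6 cases a member was the gene nearest to the peak, and 5 of the 6 peaks overlapped a member. No peak overlapped any of the 9 other genes it touched, HTR11 among them, which lay 54 to 757 bp from the peaks. Which of the genes near a peak MYB3R3 acts on cannot be told from a list of peaks. Because members share windows with their neighbours, the count falls to 0 of 9 when only peaks that touch 1 gene are used, against 4.22% of all protein-coding genes. When each peak went to its nearest gene alone, HTR9 no longer counted, and 3 of 5 H3.1 genes, 1 of 3 H3.3 genes and HTR12 kept a peak, against 9.19% of all genes. Counting only peaks whose midpoint, or at least 0.5 of whose width, lay in the window left the counts of the H3.1, H3.3 and CENH3 genes as they were, against 13.4% of all genes in both settings. Windows of 2000 bp added HTR4 and so gave 4 of 5 H3.1 genes and 2 of 3 H3.3 genes, against 17.8% of all genes.

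**Figure D3:**
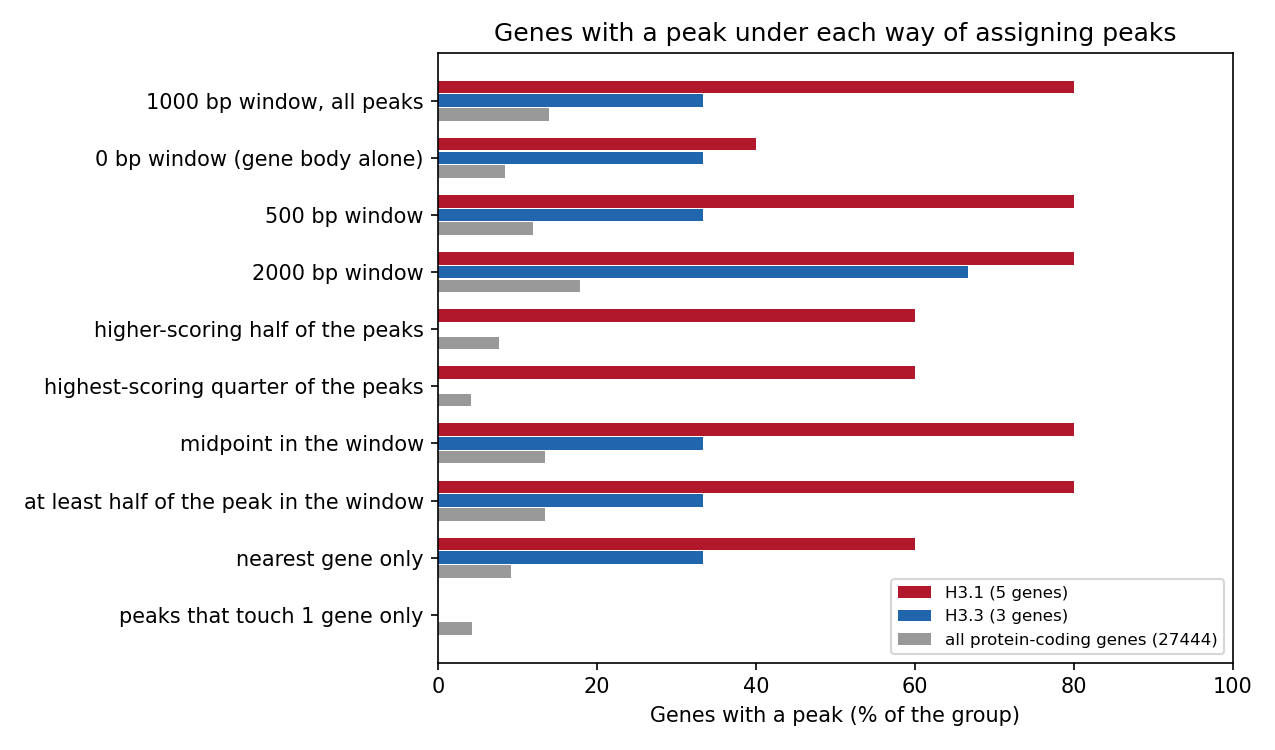
Share of H3.1 genes (red, 5 genes), H3.3 genes (blue, 3 genes) and all protein-coding genes (grey, 27444 genes) that had a peak, in percent, under each way of assigning peaks to genes. The H3.1 bar is the longer of the coloured pair in 9 of the 10 settings, and both are at 0 when only peaks that touch 1 gene are used.

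The remaining H3 genes of the family had peaks in 2 of 5 cases, against 13.9% of all protein-coding genes, and neither peak overlapped the gene. HTR10, also called MGH3, the H3 of the male gamete, was 879 bp from a peak that scored 38.9 and that overlapped its neighbour AT1G19880. HTR11 was counted only through the peak beside HTR1. HTR6 (1656 bp from the nearest peak), HTR14 (1826 bp) and HTR15 (4370 bp) had none in reach. With a window of 500 bp, none of these 5 genes had a peak, against 4 of 5 H3.1 genes, 1 of 3 H3.3 genes, HTR12 and 11.9% of all protein-coding genes.

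**Figure D4:**
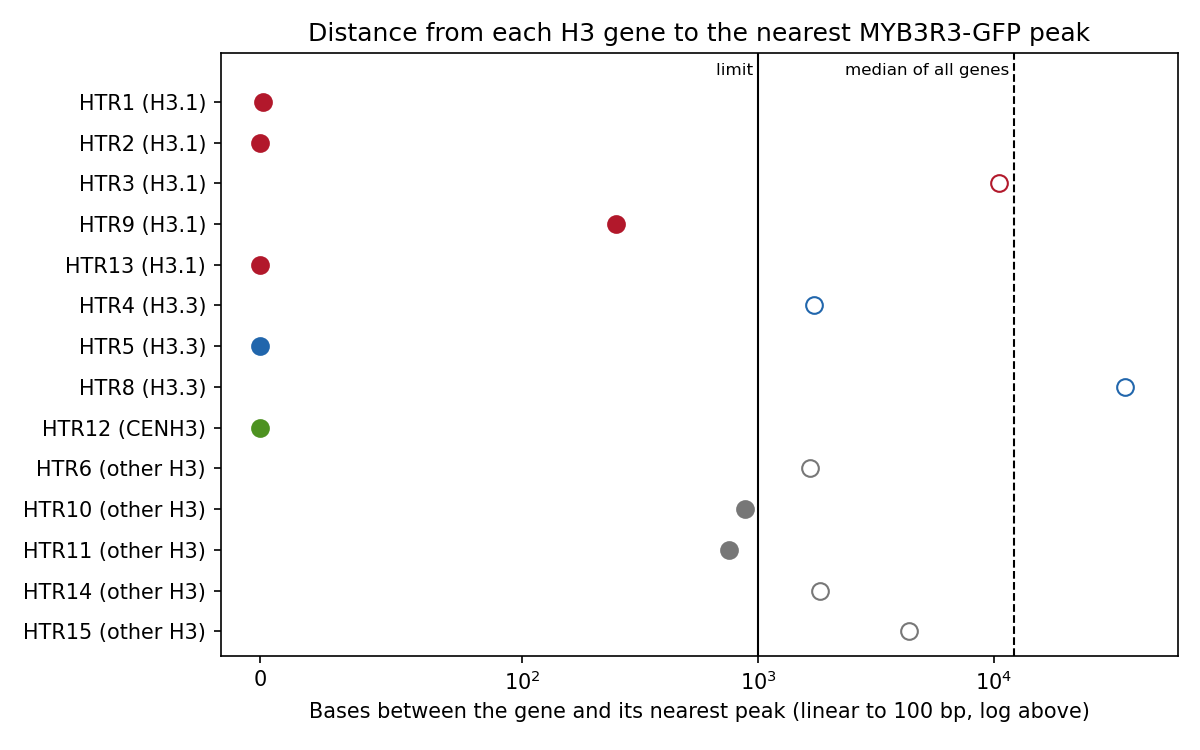
Bases between each of the 14 H3 genes and its nearest peak (linear up to 100 bp, log above). Filled points are genes with a peak within the limit of 1000 bp (solid line), open points are genes without one, and the dashed line marks the median of 12195 bp over all protein-coding genes; HTR8 is the H3 gene beyond it.

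Genes that place, mark or read H3 were examined as a list of 15, of which 9 had a peak, against 13.9% of all protein-coding genes. By role, these included 2 of 3 subunits of CAF-1, which deposits H3.1. Of the HIRA complex and ATRX, which deposit H3.3, 2 of 5 genes had a peak. So did both genes of the shared chaperone ASF1 and 1 of 2 genes tied to the loading of CENH3. The rest were 2 of 3 genes whose products write marks on H3.1 or read H3.1 itself. FAS1, the large subunit of CAF-1, scored 195.3 (rank 41), above every H3 gene. Its partner FAS2 scored 51.4, and the remaining subunit, MSI1, was 8964 bp from the nearest peak. The 15 listed genes were 1537 to 10494 bp long, against a median of 2078 bp over all protein-coding genes. Each search thus covered 3537 to 12494 bp, and a longer search can meet more peaks.

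Of the H3.3 deposition genes, CABIN1 was counted through a peak with a score of 79.3 that lay 524 bp away and also touched AUR1, the gene for a mitotic Aurora kinase. The other was UBN2, with a score of 10.4, whose peak lay 4 bp outside the gene and also touched MEI1. When each peak went to its nearest gene alone, CABIN1 and UBN2 no longer counted, while FAS1 and FAS2 did, against 9.19% of all genes. HIRA itself was 128616 bp from the nearest peak, a distance reached or exceeded by only 2.91% of protein-coding genes. UBN1 (21404 bp) and ATRX (11346 bp), also without a peak, lay at ordinary distances, reached or exceeded by 33.5% and 51.9% of protein-coding genes. ASF1B, which hands H3 to the deposition complexes, scored 61.0. KNL2, needed to load CENH3 at centromeres, scored 44.3, and TSK, also called TONSOKU, a reader of newly deposited H3.1, scored 57.5. When a peak had to overlap the gene itself, 2 of 3 CAF-1 genes and 0 of 5 genes of the HIRA complex and ATRX kept theirs, against 8.39% of all protein-coding genes. For UBN2 this turned on the 4 bp between the gene and its peak. The same setting left 2 of 5 H3.1 genes (HTR2 and HTR13) and 1 of 3 H3.3 genes (HTR5).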

How the data were processed

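The peak list was used as the authors deposited it. Per the submitters' processing notes, Bowtie 0.12.7, SAMtools 0.1.18 and MACS2 were used with the build TAIR10; they state no role for each tool, no peak threshold, no use of the input and no read depth. Each of the 2931 peaks has a score that the authors deposited, of unstated formula. Other deposited values are the start and end in bp; starts were read as 0-based, the BED convention, and are printed 1-based.

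Gene names and positions came from a RefSeq table of TAIR10.1, whose gene coordinates are not printed because its name differs from that of the files' build. The match was checked by moving all peaks in 100 bp steps to at most 5000 bp either way: 77.3% of unmoved midpoints lay within 500 bp of a gene end, the highest share of any position, and a median of 40.7% did so after moves of at least 4000 bp. The table names HTR10 (as MGH3), HTR11 and HTR12; the other HTR names follow from locus codes.

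Every protein-coding gene was treated by the same rule, and no test was run, since there was 1 library. The overlap step was tested on simulated intervals. Members and lists were chosen with earlier results of these data known. Named are all members, genes touching their peaks, the other H3 genes and up to 6 deposition or modification genes with a peak, by score; those named beyond these were chosen after their values were seen. Motif and protein comparisons were planned but not run, since no sequence was used here. Python 3.11.15, pandas 2.3.3, NumPy 2.4.6 and matplotlib 3.10.9 were used.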

Additional observations from a re-analysis of the deposited data

How the results depend on the processing

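Of 9 alternatives, none put the H3.3 share above the H3.1 share. The difference of 46.7 percentage points was 60 with the 1467 or the 733 highest-scoring peaks, 26.7 with the nearest gene only, 13.3 with 2000 bp windows, 6.67 with the gene body alone and 0 with peaks that touch 1 gene. H3.1 genes with a peak numbered 2 with the gene body and 0 with peaks that touch 1 gene. H3.3 genes numbered 2 with 2000 bp windows, which reach HTR4, and 0 with the 1467 or 733 peaks or with peaks that touch 1 gene. HTR12 had 0 in that last setting alone. The other H3 genes numbered 4 with 2000 bp, 1 with the 1467 peaks, the 733 peaks, or the midpoint or at least 0.5 of the peak in the window, and 0 with the gene body, 500 bp, the nearest gene or peaks that touch 1 gene. The deposition and modification list fell to 2 with peaks that touch 1 gene. All protein-coding genes with a peak, 3828 in the report, numbered 2303 (gene body), 2082 (1467 peaks), 1136 (733 peaks), 2522 (nearest gene) and 1158 (peaks that touch 1 gene). These settings admit less sequence or fewer peaks by construction, or more with 2000 bp. The score of a member never changed while its peak counted. No paired analysis was possible because a single ChIP library was used, and no replicate could be left out. The depth is unknown, so binding under the authors' threshold was not detectable. The motif alternative was not run.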
